A study of Mus musculus with 12 samples.

Results

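The 9 genes Plk4, Stil, Sass6, Cep135, Cenpj, Cep192, Cep152, Cep63 and Cep57 encode the core machinery by which a cell builds a new centriole beside each old one. They were chosen by name, and probesets that the platform annotation gives to a single symbol were taken for each, which left all 9 among 23102 genes measured, on 205 of 233753 such probesets. The arrays compared oral tumours of tamoxifen-treated mice. KHR tumours (n = 6) expressed RAS together with a transgene labelled iHPV, of which a further label names the human papillomavirus (HPV) gene E6, and KR tumours (n = 6) expressed RAS without it. All mice were F1 hybrids of C57BL/6 and FVB, and tamoxifen was given to both groups by intraperitoneal injection. The sources used here give neither the meaning of KR and KHR nor the promoter that drives the transgenes, other viral genes carried, or the sex and age of the mice. Whether each tumour is from a mouse of its own is not stated, so the spread that p-values measure here may lie partly within mice.

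A centriole is a short barrel of microtubules, and a pair of them with the surrounding protein matrix forms the centrosome. Duplication happens during S phase and is normally limited to a single new centriole per old one. The scaffold proteins CEP192 and CEP152 bring the kinase PLK4 to the wall of the old centriole, where CEP63 and CEP57 form a ring with CEP152. PLK4 phosphorylates STIL, which then recruits SASS6 to form the cartwheel, CEP135 ties the cartwheel to the microtubule wall, and CENPJ (also called CPAP or SAS-4) helps the barrel grow. In human cells, HPV oncoproteins are known to drive the formation of surplus centrioles. The comparison asks what the viral transgene adds to expression in a tumour driven by RAS.

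Values are log2 intensities, summarised for each gene as the median over its probesets. A change is the log2 difference KHR minus KR, tested with limma across all genes, and a gene is said to have risen or fallen only where the Benjamini-Hochberg adjusted p was under 0.05. Over all probesets the median of an array was 5.62 to 5.75, and the number of arrays limits the precision. The keratinocyte markers, 10 genes such as Krt5, Krt14 and Trp63, had a mean of 12.2 to 12.4 on KHR arrays and 12.2 to 12.3 on KR arrays, and none passed the test (1 of 10 at an unadjusted p under 0.05). Xist, an RNA that females make from their silenced X chromosome, was above 8 on 4 of 6 KHR arrays and 2 of 6 KR arrays. Animal sex was therefore not balanced.

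The promoter windows of 3 members that rose, Plk4, Stil and Sass6, and of Cep63, the member with the smallest change, are printed for comparison. None of the words searched was present in all of Plk4, Stil and Sass6. Each runs from 250 bases before the annotated start to 50 bases after it, 5′ to 3′ on the strand of the gene, from RefSeq in the build GRCm38.p6. The windows are chr3:40799701-40800000 (plus strand), chr4:114999868-115000167 (plus strand), chr3:116594708-116595007 (plus strand) and chr9:102626075-102626374 (minus strand). Capitals mark matches, on either strand, to an E2F word, to a CHR word of cell cycle genes or to the word bound by NF-Y. The E2F words searched were TTCCCGC and also TTGGCGC and also TTCGCGC and also TTGCCGC, the CHR words were TTTGAA and also TTCGAA, and the NF-Y word was CCAAT. No 2 matches overlapped in these windows.
Plk4: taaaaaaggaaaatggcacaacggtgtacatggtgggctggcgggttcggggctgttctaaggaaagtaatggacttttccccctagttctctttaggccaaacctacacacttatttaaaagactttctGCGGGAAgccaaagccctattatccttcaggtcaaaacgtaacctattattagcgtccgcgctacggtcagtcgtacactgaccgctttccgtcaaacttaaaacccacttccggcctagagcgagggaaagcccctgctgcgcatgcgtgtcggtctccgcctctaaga
Stil: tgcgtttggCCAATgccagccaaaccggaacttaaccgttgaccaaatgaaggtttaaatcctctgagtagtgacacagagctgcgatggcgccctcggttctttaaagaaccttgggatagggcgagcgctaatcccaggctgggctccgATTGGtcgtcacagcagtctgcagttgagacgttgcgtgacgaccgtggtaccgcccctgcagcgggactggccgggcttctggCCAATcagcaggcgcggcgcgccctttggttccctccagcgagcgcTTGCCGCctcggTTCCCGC
Sass6: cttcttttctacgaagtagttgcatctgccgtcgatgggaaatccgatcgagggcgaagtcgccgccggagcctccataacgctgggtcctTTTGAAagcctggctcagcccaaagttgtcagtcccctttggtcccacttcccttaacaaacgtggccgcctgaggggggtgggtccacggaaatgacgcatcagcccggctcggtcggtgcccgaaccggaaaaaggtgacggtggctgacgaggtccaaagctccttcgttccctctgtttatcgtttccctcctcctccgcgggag
Cep63: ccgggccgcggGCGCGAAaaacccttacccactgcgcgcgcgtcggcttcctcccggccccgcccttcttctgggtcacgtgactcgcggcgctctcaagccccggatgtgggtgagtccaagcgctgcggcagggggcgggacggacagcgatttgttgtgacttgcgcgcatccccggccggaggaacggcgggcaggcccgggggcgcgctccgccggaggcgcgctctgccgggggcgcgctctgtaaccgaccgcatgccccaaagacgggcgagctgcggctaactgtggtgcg
The Plk4 window held a single match, to an E2F word, 120 bases before the start. The Stil window held 2 E2F words, 31 and 43 bases after the start, and CCAAT words 15, 99 and 241 bases before it. The Sass6 window held no E2F word and a CHR word 159 bases before the start. The Cep63 window held an E2F word 239 bases before the start.

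Windows were found for 8 members, all but Cep192, and Cep57 had 2 overlapping ones. An E2F word was present for 5 of the 8 (Plk4, Stil, Cep152, Cep63 and Cep57), against 10.9% of all 27025 genes with a window of this length. A CHR word was present for 2 of the 8 (Sass6 and Cep152), against 21.7% of all genes. CCAAT was present for 4 of the 8 (Stil, Cep152, Cep135 and Cep57), against 41.1% of all genes. Of the members with an E2F word, Plk4 and Stil rose and Cep152, Cep63 and Cep57 did not pass the test. The word thus did not separate the 8 members with a window by their change, and Cep192, which rose, could not be placed. A match is a run of letters and not a measured binding site.

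Of the 9 members, 4 rose in KHR tumours and none fell, against 3.74% of all genes called in either direction and 2.71% called higher. The 4 were Plk4, Stil, Sass6 and Cep192, with changes between 0.54 and 1.02. The other 5 were higher in mean by 0.06 to 0.59 and did not pass. The median change of the 9 was 0.54, while the median over all genes was 0.0045. For Stil, Sass6 and Cep192 all KHR arrays lay above all KR arrays, which held for 1.83% of all genes. Tumours are mixtures, so fewer cells of a type and less RNA per cell cannot be told apart.

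**Figure D1:**
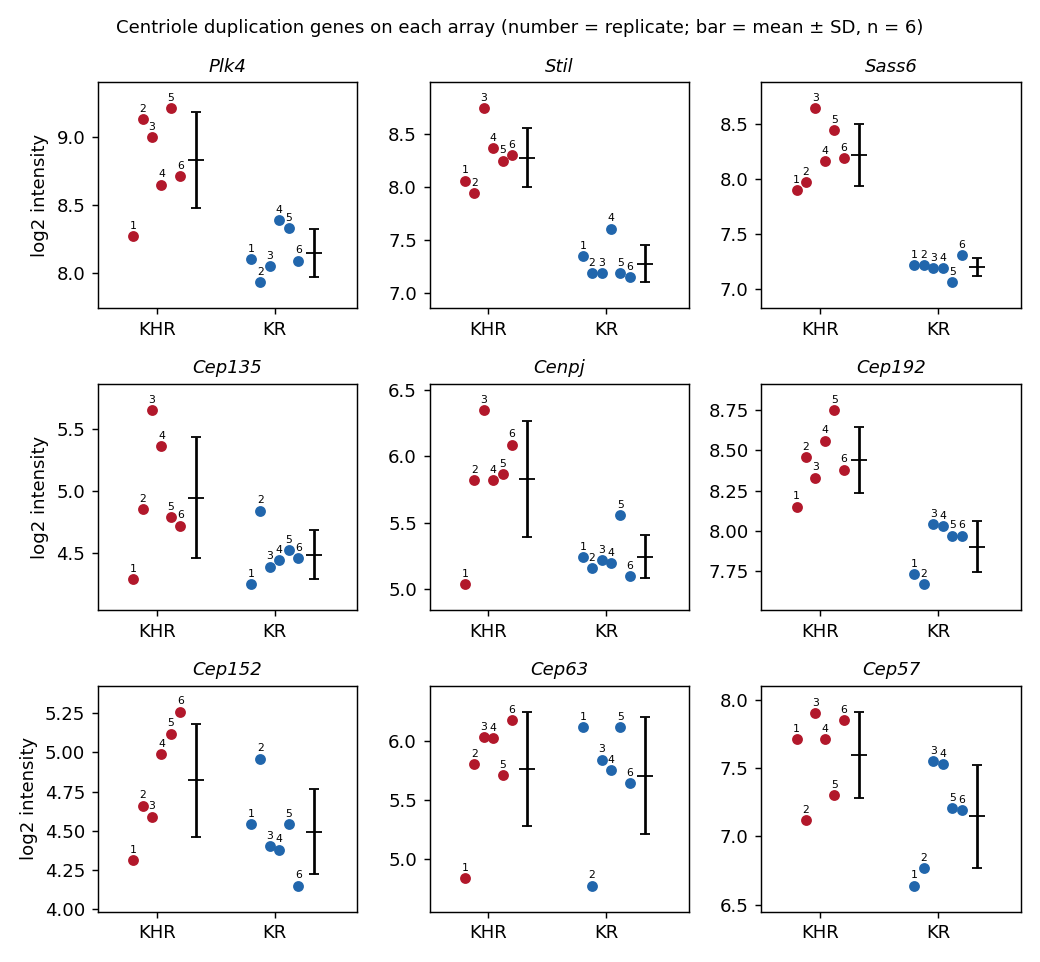
Log2 intensity of each of the 9 genes on every array, KHR tumours (red) left of KR tumours (blue), with the replicate number above each point and the mean ± SD (n = 6) as a bar. The groups do not overlap for Stil, Sass6 and Cep192, and KHR 1 is the lowest KHR array for 7 of the 9 genes.

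Plk4, the kinase that starts duplication, ranged from 8.27 to 9.21 with a median of 8.85 in KHR tumours, and from 7.93 to 8.39 with a median of 8.10 in KR tumours. Of the KHR arrays, 5 lay above the highest KR array, and only KHR 1 lay within the KR range. Plk4 averaged 8.83 ± 0.35 in KHR tumours and 8.15 ± 0.17 in KR tumours (SD, n = 6 each), a change of 0.68 ± 0.15 (SE), or 1.60-fold (limma, adjusted p = 0.0230). The call was lost without KHR 3, KR 2 or KR 6, where the change was 0.64, 0.63 and 0.67 (adjusted p = 0.0558, 0.0602 and 0.0509). It was also lost with the Xist level as a covariate, at 0.63 (adjusted p = 0.0601), and with the mean of 10 skeletal muscle genes as a covariate, at 0.53 (adjusted p = 0.0518). The call held, at adjusted p-values from 0.00653 to 0.0366, under the other 10 settings with the same threshold fitted to all 12 arrays. The change was smaller, at 0.49 and 0.46, with the mean over probesets or median polish in place of the median.

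Stil, whose protein is the substrate of PLK4 and carries SASS6 to the site of assembly, ranged from 7.94 to 8.74 with a median of 8.27 in KHR tumours, and from 7.15 to 7.61 with a median of 7.19 in KR tumours. The lowest KHR array, KHR 2, lay above the highest KR array, KR 4. Stil averaged 8.27 ± 0.28 in KHR tumours and 7.28 ± 0.18 in KR tumours (SD, n = 6 each), a change of 0.99 ± 0.13 (SE), or 1.99-fold (limma, adjusted p = 0.00102).

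Sass6, which encodes the building block of the cartwheel, ranged from 7.90 to 8.64 with a median of 8.17 in KHR tumours, and from 7.06 to 7.31 with a median of 7.20 in KR tumours. The gap between the groups was wider than the whole KR range. Sass6 averaged 8.22 ± 0.28 in KHR tumours and 7.20 ± 0.08 in KR tumours (SD, n = 6 each), a change of 1.02 ± 0.12 (SE), or 2.02-fold (limma, adjusted p = 0.000514). It ranked 35 among all genes by p, and Stil ranked 60. Both stayed past the threshold on leaving out any array and under all 12 other settings with the same threshold fitted to all arrays (adjusted p up to 0.00457 for Stil and 0.00431 for Sass6).

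Cep192, the scaffold that recruits PLK4 and later the matrix of the mitotic centrosome, ranged from 8.15 to 8.75 with a median of 8.42 in KHR tumours, and from 7.67 to 8.04 with a median of 7.97 in KR tumours. The groups did not overlap, with KHR 1 the lowest KHR array and KR 3 the highest KR array. Cep192 averaged 8.44 ± 0.20 in KHR tumours and 7.90 ± 0.16 in KR tumours (SD, n = 6 each), a change of 0.54 ± 0.11 (SE), or 1.45-fold (limma, adjusted p = 0.0155). It passed on leaving out any array and under the same 12 settings (adjusted p up to 0.0418). The lowest change of Cep192 under these settings was 0.39, with median polish.

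Cenpj, the elongation factor, ranged from 5.04 to 6.35 with a median of 5.84 in KHR tumours, and from 5.10 to 5.56 with a median of 5.21 in KR tumours. Of the KHR arrays, 5 lay above every KR array, while KHR 1 lay below every KR array. Cenpj averaged 5.83 ± 0.44 in KHR tumours and 5.25 ± 0.16 in KR tumours (SD, n = 6 each), a difference of 0.59 ± 0.17 (SE; limma, adjusted p = 0.0880). Without KHR 1 the difference was 0.74 and passed (adjusted p = 0.00400). It also passed with the mean over probesets or median polish in place of the median and with array weights (adjusted p = 0.0125, 0.00853 and 0.0425). Cenpj did not pass on leaving out any other array or under the remaining settings. Among these were the Xist covariate, at 0.53, and the muscle covariate, at 0.49 (limma, adjusted p = 0.184 and 0.216).

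Cep135, which links cartwheel and wall, averaged 4.94 ± 0.48 in KHR tumours and 4.48 ± 0.20 in KR tumours (SD, n = 6 each), with 3 KHR arrays above the highest KR array. The difference was 0.46 ± 0.19 (SE), with a 95% interval of 0.05 to 0.87 before adjustment (limma, adjusted p = 0.251). Its mean level was under the median gene level of 4.98, as was that of Cep152, and since the table carries no detection calls, these 2 differences are uncertain in size.

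Of the remaining recruiters, none passed the test. Cep152, the receptor of PLK4 on the old centriole, averaged 4.82 ± 0.36 in KHR tumours and 4.49 ± 0.27 in KR tumours (SD, n = 6 each), a difference of 0.33 ± 0.17 (SE; 95% interval -0.04 to 0.69; limma, adjusted p = 0.379). Cep57, whose protein forms a ring with CEP63 and CEP152, averaged 7.60 ± 0.32 in KHR tumours and 7.15 ± 0.38 in KR tumours (SD, n = 6 each), a difference of 0.45 ± 0.18 (SE; 95% interval 0.06 to 0.84; limma, adjusted p = 0.231). Cep57 passed with median polish (adjusted p = 0.0390). Cep63 averaged 5.76 ± 0.48 in KHR tumours and 5.70 ± 0.49 in KR tumours (SD, n = 6 each), a difference of 0.06 ± 0.25 (SE; limma, adjusted p = 0.953). The 95% interval for Cep63, -0.47 to 0.59, is wide enough to hold changes of the size seen for Cep192. For Cep152, Cep135, Cep57 and Cep63 the groups overlapped.

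**Figure D2:**
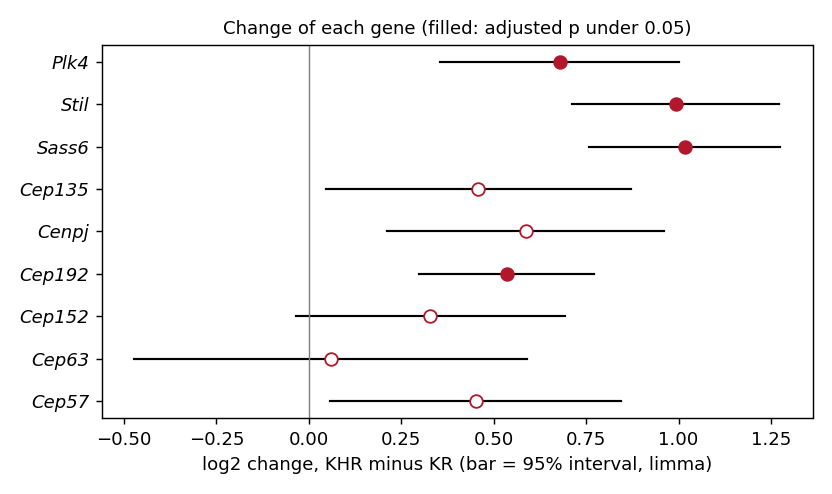
Log2 change, KHR minus KR, of each gene with its 95% interval from limma before adjustment, filled where the adjusted p was under 0.05. Plk4, Stil, Sass6 and Cep192 are filled, and the intervals of Cep152 and Cep63 reach across 0.

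The arrays did not share a single order across the members. KHR 1 was the lowest KHR array for 7 members, all but Stil and Cep57, and its values lay 0.46 below the KHR means on average over the 9. KHR 3 was the highest KHR array for 5 members, namely Stil, Sass6, Cep135, Cenpj and Cep57, and no array of the KR group was highest for more than 2. Mki67, a proliferation marker, read 10.2 on KHR 1 and 10.4 to 10.8 on the other KHR arrays, against 9.55 to 10.1 on KR arrays. Mcm2, of the replicative helicase, read 9.27 on KHR 1, within the KHR range of 8.51 to 9.45, against 7.46 to 8.08 on KR arrays. Whether KHR 1 held fewer dividing cells was not tested.

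Deviations from the group means over the 12 arrays were most alike for Cenpj with Cep63 (Pearson r = 0.73) and for Stil with Sass6 (r = 0.68), and least alike for Cep152 with Cep57 (r = -0.27). These r values are descriptions over only 12 arrays and were not tested. For Cenpj and Cep63, KHR 1 was the lowest KHR array for both genes (5.04 and 4.84). Among 11544 other genes above the median level, those most like Plk4 by this measure were Psma3, Dsel and Utp18 (r from 0.91 to 0.93). Those most like Stil were Casq2, Bet1l and Mfsd14a (r from 0.85 to 0.94), and those most like Sass6 were Ccdc77, Nln and Gpatch1 (r from 0.91 to 0.94). Of these 9, Casq2, which encodes a calcium-binding protein of muscle, changed by 1.18 (limma, adjusted p = 0.0105) and Ccdc77 by 0.61 (limma, adjusted p = 0.0158), and the others did not pass. All 9 are the top of searches over 11544 genes with only 12 arrays. High r can arise from such a search alone, and shared regulation was not tested.

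**Figure D3:**
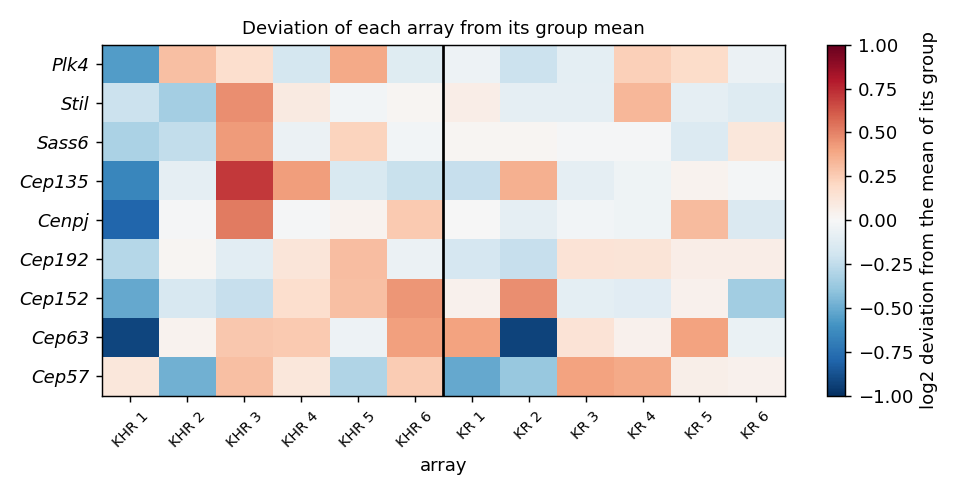
Deviation of each array from the mean of its group, in log2 units, for the 9 genes (rows) on the 6 KHR and 6 KR arrays (columns), red above and blue below the mean. The column of KHR 1 is blue for 8 of the 9 genes, and Cep63 is far below its group mean on KHR 1 and KR 2.

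Within arrays of high Xist, 4 KHR and 2 KR, the differences were 0.65 for Plk4, 1.03 for Stil, 1.11 for Sass6 and 0.50 for Cep192. Within arrays of low Xist, 2 KHR and 4 KR, they were 0.60, 0.76, 0.76 and 0.45 for the same genes. Each of the 4 was thus higher in KHR tumours within both classes. For Stil, Sass6 and Cep192 all KHR arrays lay above all KR arrays before the split. Their direction and lack of overlap within a class were therefore fixed in advance and test nothing. For Plk4 the groups overlapped in the low class and not in the high class. Cenpj, Cep152 and Cep135, which had not passed, showed the same. For Plk4 and Cenpj, KHR 1, an array of low Xist, was the only KHR array not above every KR array. The lack of overlap of these genes in the high class was therefore fixed in advance too, and tests nothing. With so few arrays none of the 9 passed limma within a class. At an unadjusted p under 0.05 in limma were 7 of 9 in the high class and 4 of 9 in the low class. Over all 23102 genes these counts were 2812 and 1830. Cep152 differed by 0.73 in the high class and -0.13 in the low class, and Cep63 by 0.29 and -0.39; whether these differ between classes was not tested. This split of the arrays was chosen after seeing the data.

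Of the 205 probesets of the members, 174 (84.9%) were higher in mean in KHR tumours, against 51.7% of all 233753 probesets. In a test per probeset 15 rose and none fell, which is to be read against 1.02% of all probesets called (limma, adjusted over all probesets). Of the 15, 8 belonged to Sass6, 4 to Stil and 1 each to Plk4, Cenpj and Cep192. The count was 8 without KHR 3, KR 2 or KR 3 and 9 without KHR 4 or KHR 6. Probesets of a gene share their transcript and are not replicates.

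All 18 Stil probesets were higher in KHR tumours, with changes from 0.40 to 1.62. For Sass6, 17 of 18 were higher and the remaining one stood at -0.40, with a highest change of 1.67. For Plk4, 16 of 18 were higher, from -0.10 to 0.94, and for Cep192, 43 of 44, from -0.33 to 1.65. Among the members that did not pass, 17 of 19 were higher for Cenpj, 19 of 25 for Cep152, 18 of 24 for Cep135 and 14 of 19 for Cep57. For Cep63, 12 of 20 were higher, with a median probeset change of 0.08. Every probeset of Stil and Sass6 had a mean above the median of all probesets (5.62), as did 41 of 44 for Cep192 and 15 of 18 for Plk4. Dim probesets were more common in the members that did not pass: 19 of 25 for Cep152, 17 of 24 for Cep135, 11 of 19 for Cenpj, 9 of 20 for Cep63 and 5 of 19 for Cep57. Over the bright probesets alone, the median change was 0.57 for Cep57 (14 probesets), 0.62 for Cenpj (8), 0.47 for Cep135 (7), 0.13 for Cep63 (11) and 0.07 for Cep152 (6). With dim probesets left out of the gene value, none of these passed. The gene differences were then 0.45 for Cep57, 0.56 for Cenpj and 0.30 for Cep135 (limma, adjusted p = 0.125, 0.0915 and 0.493). For the members that rose, the bright median was 0.57 for Plk4, 0.94 for Stil, 1.07 for Sass6 and 0.46 for Cep192.

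**Figure D4:**
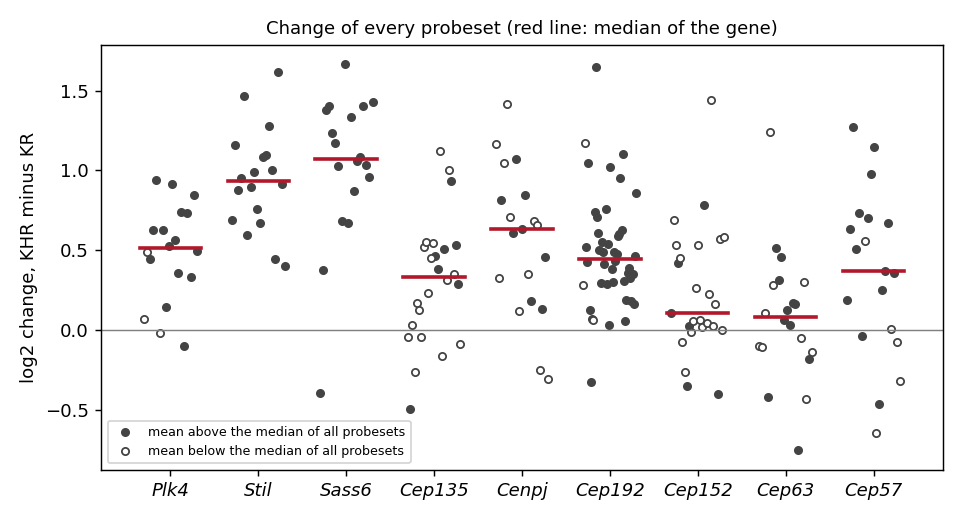
Log2 change, KHR minus KR, of every probeset of the 9 genes, filled where its mean over all arrays lay above the median of all probesets, with the median of each gene as a red line. The points of Stil all lie above 0, and most open points belong to Cep152, Cep135, Cenpj and Cep63.

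Around the core machinery, 69 further genes of the centrosome in 6 lists were measured, of which 12 rose and none fell. Over all genes 2.71% were called higher and 1.03% lower, against which the counts per list below are also to be read. Their median change was 0.29, against 0.54 for the 9 members and 0.0045 over all genes. The count was 6 without KHR 3 or KHR 4 and 7 without KR 2 or KR 6, and 5 with either the Xist or the muscle covariate.

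Of 19 genes of procentriole elongation and capping, 4 rose, with a list median of 0.39. They were Cdk5rap2, which also organises the matrix, at 0.77 ± 0.13 (SE), Poc1b and Poc1a, of the inner centriole wall, at 0.50 ± 0.10 and 0.67 ± 0.14, and Spice1, a partner of CENPJ, at 0.74 ± 0.16 (limma, adjusted p from 0.00421 to 0.0221). Of 14 genes of the pericentriolar matrix, 4 rose, with a list median of 0.31. Besides Cdk5rap2 these were Tubg1, the gamma-tubulin that nucleates microtubules, at 0.98 ± 0.15, its ring subunit Tubgcp2 at 0.52 ± 0.13 and the ring's targeting factor Nedd1 at 0.79 ± 0.20 (limma, adjusted p = 0.00217, 0.0362 and 0.0415). Of 13 genes listed as regulators of PLK4 and STIL, several of them with wider roles, 3 rose, with a list median of 0.20. They were the deubiquitinase gene Usp1 at 0.66 ± 0.10, the mitotic kinase gene Pbk at 0.69 ± 0.15 and Cep57l1, the paralogue of Cep57, at 0.65 ± 0.17 (limma, adjusted p = 0.00197, 0.0234 and 0.0433).

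Of 8 genes of centriolar satellites, the granules around the centrosome, 2 rose, with a list median of 0.34. Pcm1, their scaffold, rose by 0.48 ± 0.11 and Cep290 by 0.86 ± 0.20 (limma, adjusted p = 0.0230 and 0.0279). No member of the centrosome linker passed, with a list median of 0.17 over 6 genes (2 at an unadjusted p under 0.05 in limma). Its members with the smallest p were Nek2, the kinase that opens the linker, at 0.44 ± 0.14, and Cntln at 0.72 ± 0.30 (adjusted p = 0.111 and 0.250). Without KHR 1, Cntln passed at 1.03 (adjusted p = 0.00261). Cntln also passed with probesets averaged, median polished or with dim ones left out (limma, adjusted p from 0.0210). Nek2 passed with probesets averaged (limma, adjusted p = 0.0354). No member of the appendages of mature centrioles passed either, with a list median of -0.0045 over 12 genes (3 at an unadjusted p under 0.05 in limma). Cep83 and Cep164, both of the distal appendages, differed by 0.51 ± 0.16 and 0.40 ± 0.13 (adjusted p = 0.115 and 0.128), and Cep83 passed without KHR 1 (adjusted p = 0.0482) and with probesets averaged or median polished (adjusted p from 0.0431).

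Of the 12 that rose, Usp1, Tubg1 and Poc1a passed on leaving out any array and under all 12 other settings with the same threshold, though Tubg1 was as low as 0.58. Cdk5rap2 lost its call when dim probesets were left out (0.42, adjusted p = 0.108) and Poc1b when probesets were averaged (0.31, adjusted p = 0.0707). The other 7 lost theirs on leaving out some arrays and under some settings, with the lowest changes at 0.24 for Spice1 and Cep57l1, 0.29 for Pcm1, 0.44 for Tubgcp2, 0.47 for Pbk, 0.51 for Nedd1 and 0.54 for Cep290. Nedd1 passed on leaving out only KHR 1 among the 12 arrays, Tubgcp2 on leaving out any of 3 and Cep57l1 any of 5.

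The genes of the deuterosome and of multiciliated cells, which make many centrioles at once by another route, stood apart in level. Their list of 10 averaged 3.98 to 4.19 on KHR arrays and 4.00 to 4.12 on KR arrays, and 9 of the 10 had a mean level below the median of all genes. None passed and none had an unadjusted p under 0.05 in limma. Deup1, the deuterosome paralogue of Cep63, differed by -0.13 ± 0.11 (SE; adjusted p = 0.625).

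Proliferation genes rose beside the members, against 2.71% of all genes called higher. Of 19 E2F S-phase targets 17 rose, with a median change of 1.02 and a list mean of 8.66 to 9.02 on KHR arrays and 7.67 to 7.78 on KR arrays. Those with the smallest p were the primase gene Prim1 at 1.62 ± 0.09 (SE), the helicase genes Mcm6 and Mcm4 at 1.30 ± 0.10 and 1.11 ± 0.10, and Rrm1, of nucleotide supply, at 0.99 ± 0.10 (limma, adjusted p up to 0.000212). Of 19 G2M and mitosis genes 15 rose, with a median change of 0.72 and a list mean of 8.79 to 9.12 on KHR arrays and 8.05 to 8.40 on KR arrays. The cyclin gene Ccnb2 and the mitotic regulators Ttk, Aurkb and Kif2c rose by 0.81 ± 0.11, 0.99 ± 0.15, 0.64 ± 0.10 and 0.75 ± 0.12 (limma, adjusted p up to 0.00237). The changes of Sass6 and Stil, 1.02 and 0.99, lay near the median of the S-phase list, those of Plk4, Cenpj and Cep192 below the median of the mitotic list. How far more dividing cells enter the members' changes was not tested.

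**Figure D5:**
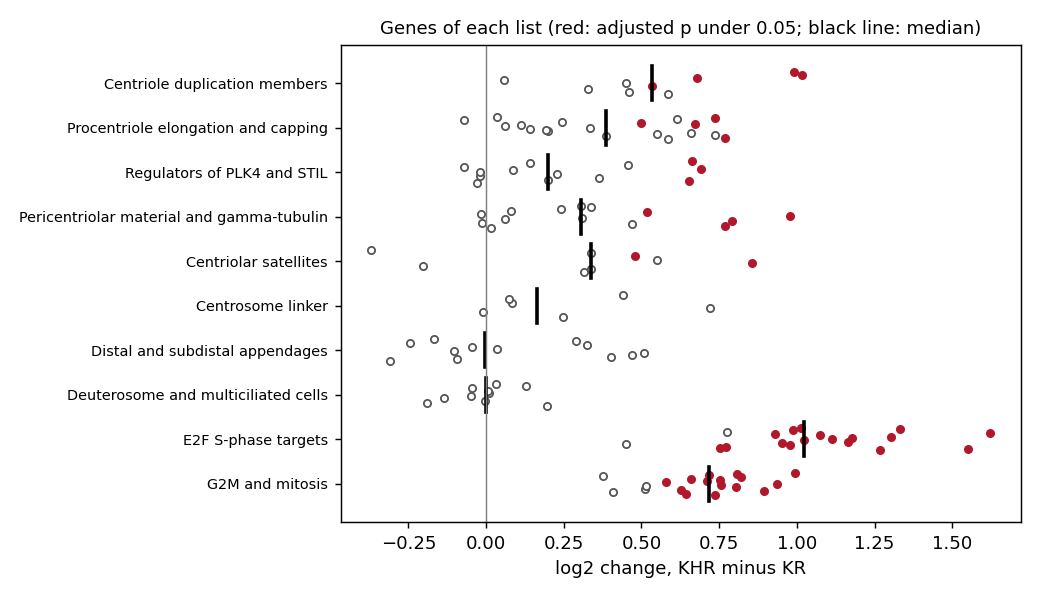
Log2 change, KHR minus KR, of each gene in the members' list, in 6 lists of other centrosome genes, in the deuterosome list and in 2 proliferation lists, red where the adjusted p was under 0.05, with the median of each list as a black line. The median is 0.54 for the members, those of the other centrosome lists run from -0.0045 (appendages) to 0.39 (elongation and capping), that of the deuterosome list is 0.00056, and the lists of E2F targets and mitosis lie at 1.02 and 0.72.

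Among the markers of skeletal muscle, fibroblasts, immune cells and endothelium, Col1a2 alone passed the test. The mean of 10 skeletal muscle genes lay between 5.64 and 8.18 on KHR arrays, highest on KHR 5, and between 5.51 and 6.92 on KR arrays, with 9 of the 10 higher in mean in KHR tumours and none past the test (none at an unadjusted p under 0.05 in limma). Their median change of 0.62 was above the 0.54 of the members. With that mean as a covariate Stil, Sass6 and Cep192 kept their calls, at 0.97, 0.98 and 0.43 (adjusted p = 0.00403, 0.00205 and 0.0339), and Plk4 lost its call, at 0.53 (adjusted p = 0.0518). Of 8 fibroblast genes 1 fell, Col1a2 at -0.80 ± 0.18 (SE, limma, adjusted p = 0.0220). Among the 8, 4 were higher in mean in KHR tumours, and the median change of the list was 0.05. Of 10 immune cell and 6 endothelial genes none passed (2 and none at an unadjusted p under 0.05 in limma). The part of these cells in the members' changes was not tested beyond the muscle covariate.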

How the data were processed

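Total RNA of 12 tumours was hybridised to Affymetrix Mouse Gene 2.0 ST arrays and read at exon level. The deposited values were log2 intensities per probeset (269751), and Partek, with no version, is named in the submitters' processing notes; the sources used here do not give background correction, normalization or build, and base 2 was inferred from the values' range. Of the probesets, 233753 had 1 symbol in GEO's platform annotation, 5106 several and 30892 none; of 23152 symbols, 2247 were updated through RefSeq synonyms (GRCm38.p6) and 30 matched no entry. No filter was set on dim genes. Genes and, separately, probesets were tested with limma 3.58.1 (lmFit, eBayes) in R 4.3.3, two-sided, all 12 arrays, no covariate, Benjamini-Hochberg over all rows. Tables and figures used pandas 2.3.3, matplotlib 3.10.9 and numpy 2.4.6 in Python 3.11.15. Named were all 9 members, up to 4 called genes with the smallest p of each list (otherwise the 2 with the smallest p), and the 3 genes most like Plk4, Stil and Sass6 each, with Xist, Mki67 and Mcm2; Deup1 and Col1a2 were named after their values were seen. Members, lists and promoter words were chosen with earlier results of these data known. Alternatives covered probeset summary, scaling, filters, variance model, array weights, replicate block, covariates, threshold and leaving out each array. Some listed genes are not analysed here. Markers of red blood cells (Alas2) and of salivary gland (5 genes) held no gene past the threshold (1 and none at an unadjusted p under 0.05 in limma).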

Additional observations from a re-analysis of the deposited data

Results flagged for a closer look

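In 8 of 68 groups of 6 arrays examined (34 named genes), the highest or lowest array stood apart by a gap above Dixon's 95% critical value for 6 samples, which chance gives for about 1 in 20 groups. Among the members, Cep63 was low on KHR 1 (4.84) and on KR 2 (4.78), and Cenpj was high on KR 5 (5.56). Among other centrosome genes, Cntln was low on KHR 1 (4.69), Nedd1 on KR 5 (5.88) and Cep290 on KR 1 (5.61), and Pcm1 was high on KR 4 (9.12). Prim1 was high on KHR 2 (9.43).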

How the results depend on the processing

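Of the 9 members 4 passed, while 2 (Stil and Sass6) passed at an adjusted p under 0.01, and 3 to 5 on leaving out each array. None passed within arrays of high or of low Xist, where limma gave 7 and 4 at an unadjusted p under 0.05. For all 23102 genes limma gave 2812 and 1830 at that unadjusted threshold. Over all genes 863 passed: 1445 with the mean over probesets, 555 with the Xist covariate, 312 at 0.01, 77 and 16 within arrays of high and low Xist, and 523 to 1085 on leaving out each array, lowest without KHR 4 or KR 2 (523 and 531). Of 69 other centrosome genes 12 passed: 19 with the mean over probesets, 5 with the Xist and 5 with the muscle covariate, 4 at 0.01, 0 within either Xist class (22 and 11 at an unadjusted p under 0.05 in limma), and 6 to 18 on leaving out each array. Of the members' probesets 15 passed: 9 with the Xist covariate, 2 at 0.01 and 8 to 21 on leaving out each array. The Xist classes, which hold 6 arrays each, were added after seeing the data. The same-numbered arrays of the groups deviated together weakly or not at all (r from -0.00295 to 0.234, above 0.1 in 2 of 6 pairs). Of 12 arrays, 3 correlated best with their own number. A pairing by number was thus neither shown nor excluded. With the replicate number as a block 8 of the members' probesets passed and the same 4 members did (925 genes in all). No call changed sign. Beyond what is stated, the causes of these shifts were not tested. No detection call was given, so differences of dim genes such as Cep135 and Cep152 are not exact.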
